A study of Mus musculus with 2 samples.

Results

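The cytosolic ribosomal protein genes encode the protein part of the ribosome that translates nuclear mRNAs. They were picked by symbol among the protein-coding genes of the tables: Rpl or Rps followed by a number, Rplp0 to Rplp2, Rpsa and Fau, without the S6 kinases. The rule found 84 of the 43346 genes listed. Of these, 78 are core proteins of the ribosome, 46 in the large (60S) and 32 in the small (40S) subunit, and 6 are paralogs: Rpl3l, Rpl7l1, Rpl10l, Rpl22l1, Rpl39l and Rps27l. The members lie on 20 chromosomes, with 14 on chromosome 7, 8 on chromosome 17 and 4 on chromosome X.

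RNA came from livers of C57BL/6J mice, 8 weeks old, with male and female littermates pooled. The labels name no treatment, so there is 1 group of this strain and age, with samples labelled as biological replicates 1 and 2. Both libraries were strand-specific RNA-seq of poly-A RNA, with ribosomal RNA depleted, from RNA longer than 200 nucleotides. Differences below compare these 2 libraries, not conditions. The labels give both replicates the same donor identifier and different tissue samples, and do not say whether these came from separate sets of animals. Each SD therefore covers no more than the spread of these samples, and that spread may be technical. Each p-value covers counting error alone, not that spread.

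A ribosome carries about equal numbers of most of these proteins, and cells make them in step with its RNA. Their mRNAs are among the most abundant in growing and secreting cells, and most begin with a run of pyrimidines right at the cap, the terminal oligopyrimidine (TOP) tract. Through this tract the mTOR kinase and the cap-binding repressor Larp1 adjust their translation to nutrients. The genes have also left many processed pseudogenes, copies of spliced mRNA that were inserted back into the genome.

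The depth was 60770411 reads in replicate 1 and 61688916 in replicate 2, spike-ins included. Hepatocyte markers, led by Alb, summed to 57831 TPM in replicate 1 against 58931 TPM in replicate 2, and none of the 8 was below 0.1 TPM. By the exact test described further on, 7 of the 8 were higher in replicate 1 and 1 in replicate 2. With reads scaled by spike-ins these counts were 4 and 4. With the main scaling, 29.0% of all genes tested were called higher in replicate 1 and 28.6% in replicate 2. At a mean TPM of at least 10, 75.9% of genes were called in either direction. TPM, the deposited level per transcript length, has the same sum over all entries in each library. Kupffer cell markers summed to 154 TPM in replicate 1 and 258 in replicate 2, and all 7 were higher in replicate 2 by the same exact test. Summed red cell markers were at 1290 TPM in replicate 1 against 2110 TPM in replicate 2, with 4 of 5 higher in replicate 2. Sinusoidal endothelial markers summed to 79.3 and 114 TPM in the same order, stellate cell markers to 94.1 and 106 TPM, bile duct markers to 21.2 and 18.7 TPM, and lymphocyte markers to 4.17 and 9.49 TPM. By the test, 0 and 5 of 6 sinusoidal endothelial markers were higher in replicates 1 and 2. These counts were 2 and 2 of 5 for stellate cell, 2 and 0 of 5 for bile duct and 1 and 2 of 5 for lymphocyte markers. Against their sums, the stellate marker Lrat had 6.68 and 2.97 TPM, and the lymphocyte marker Cd3d 0.78 and 0.39 TPM. The part of these cell types in the members' differences was not tested, and in whole liver fewer cells of a type and less RNA per cell cannot be told apart.

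The TOP tract can be read from the RefSeq promoter table (GRCm38.p6), which held 64 of the 84 members. A C at the annotated first transcribed base followed by at least 4 pyrimidines was found in 14 of them (21.9%), against 813 of 27025 genes (3.01%) in the table. Some genes have several annotated starts, and a gene was counted where any of them matched. The 8 of these with the highest levels are printed below, because they show the element that defines the class. Each line gives 15 bases before the annotated start and 15 from it on, 5′ to 3′ on the coding strand, with the tract in capitals.
Rps21: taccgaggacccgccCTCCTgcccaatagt
Fau: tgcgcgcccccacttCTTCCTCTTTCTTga
Rps10: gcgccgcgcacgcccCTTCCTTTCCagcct
Rps6: aagcggaagtcgggcCTCTTTTTCgtgacg
Rpl28: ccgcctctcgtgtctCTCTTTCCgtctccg
Rplp2: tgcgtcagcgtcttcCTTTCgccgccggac
Rpl38: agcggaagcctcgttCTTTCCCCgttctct
Rps18: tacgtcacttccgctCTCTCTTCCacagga

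The windows of Rps21 (chr2:180257364-180257393), Fau (chr19:6057932-6057961), Rpl28 (chr7:4792950-4792979), Rplp2 (chr7:141447636-141447665) and Rpl38 (chr11:114668565-114668594) are on the plus strand. Those of Rps10 (chr17:27635230-27635259), Rps6 (chr4:86857353-86857382) and Rps18 (chr17:33955651-33955680) are on the minus strand. Tracts ranged from 5 bases in Rps21 and Rplp2 to 13 bases in Fau and Rpl15. The annotated start decides much of this count: allowing the tract to begin within 5 bases of it gave 30 of 64 members (46.9%) against 21.2% of genes, and within 25 bases 54 members (84.4%) against 59.3% of genes. The 3 most abundant members in the table, Rps2, Rps12 and Rpl10, have no tract at the annotated start itself and are shown for contrast, in lower case throughout.
Rps2: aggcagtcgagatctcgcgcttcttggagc
Rps12: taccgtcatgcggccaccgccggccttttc
Rpl10: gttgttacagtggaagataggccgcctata

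These windows are chr17:24720048-24720077 (Rps2, plus strand), chr10:23787195-23787224 (Rps12, minus strand) and chrX:74270801-74270830 (Rpl10, plus strand). In Rps2 a tract did begin within 5 bases of the annotated start, and in Rps12 within 25 bases. Rpl10 had none within 25 bases. Among the core members in the table, the median level was 207 TPM for the 14 with a tract at the annotated start and 192 TPM for the other 44. Further motifs were counted on both strands over the whole window, from 250 bases before to 50 bases after the start. The ETS motif CCGGAAGT was in 12 of 64 members (18.8%) against 4.31% of genes, and the SP1 motif GGGCGG in 40 members (62.5%) against 38.2%. The YY1 motif ATGGCGGC was in 4 members (6.25%) against 2.61%, the E-box CACGTG in 6 members (9.38%) against 8.09%, and the TATA box TATAAA in 7 members (10.9%) against 15.7%. These matches describe letters in the window and were not tested for binding.

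Together the 84 members held 2.79% ± 0.169 of TPM (SD, n = 2), with 2.67% in replicate 1 and 2.91% in replicate 2. They took 1.09% of gene reads in replicate 1 and 1.18% in replicate 2, a smaller share than of TPM, which divides by length: the median length of a core member was 682 bases, against 2186 bases for the 11153 genes at a mean TPM of at least 1. Core 60S genes held 1.55% ± 0.0930 and core 40S genes 1.23% ± 0.0770 of TPM. All 78 core members were detected at 1 TPM or more in both libraries, 53 of them at 100 TPM or more, and 3 of the 6 paralogs were detected. The median core member had 198 TPM, against 9.66 TPM for the median gene at 1 TPM or more.

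Rplp1 led the members at 4421 TPM in replicate 1 and 5281 in replicate 2, and ranked 28th of all genes listed. It lies on chromosome 9 at 61913284 to 61914542 (mm10, minus strand) and encodes an acidic protein of the P stalk, the arm of the large subunit that recruits elongation factors. Rplp1 alone made up 17.5% of the core TPM. Its partners in the stalk were far lower: Rplp0, the base of the stalk, had 523 TPM in replicate 1 against 523 TPM in replicate 2, and Rplp2, the other acidic protein, had 221 TPM in replicate 1 and 247 in replicate 2. The ranges of the 3 stalk genes did not overlap.

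Rps2, which lines the mRNA entry of the small subunit, came next at 2020 TPM in replicate 1 against 1887 TPM in replicate 2 (chromosome 17, 24718116 to 24721929, plus strand). Rps12, a protein of the head of the small subunit, had 1102 TPM in replicate 1 and 1113 in replicate 2. These were the only members at 1000 TPM or more in both libraries, and their order was the same in each. Rpl10, a large subunit protein that joins late in assembly, had 810 TPM in replicate 1 against 886 TPM in replicate 2. Its range overlapped with that of the large subunit gene Rpl36, at 657 TPM in replicate 1 and 901 in replicate 2, so the order below the leading 3 was not settled by these libraries.

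Others of the 10 highest lay close together. Rps21 had 773 TPM in replicate 1 against 757 TPM in replicate 2. Rpl41, which encodes the shortest ribosomal protein, had 666 TPM in replicate 1 against 685 TPM in replicate 2. Rps15, of the small subunit head, had 575 TPM in replicate 1 and 871 in replicate 2. Rps29, a zinc-binding protein of the small subunit, had 653 TPM in replicate 1 against 745 TPM in replicate 2. Of these 4, Rps15 differed most between the libraries.

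Some members make a fusion protein or have a further role. Fau, which encodes a ubiquitin-like protein fused to a small subunit protein, had 534 TPM in replicate 1 and 715 in replicate 2. Rps27a, a fusion to ubiquitin itself, stood about an order of magnitude lower at 56.2 TPM in replicate 1 against 50.6 TPM in replicate 2. Rpsa, known also as the laminin receptor, had 420 TPM in replicate 1 against 502 TPM in replicate 2. Rack1, a scaffold bound to the small subunit but outside the rule, had 545 TPM in replicate 1 and 596 in replicate 2.

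**Figure D1:**
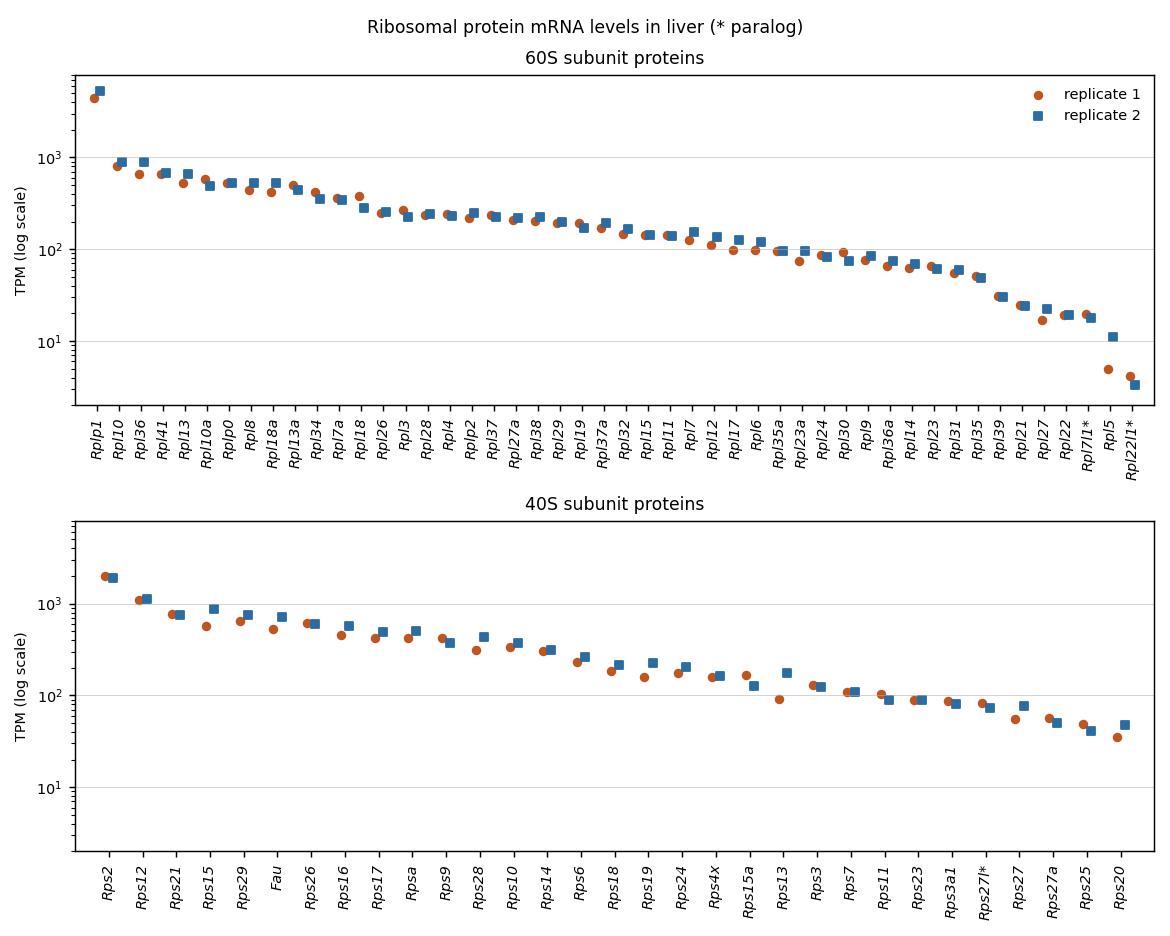
Level of 79 of the 81 ribosomal protein genes at 1 TPM or more in both libraries (the other 2 are not shown), in TPM on a log axis, in replicate 1 (circles) and replicate 2 (squares), ordered by mean within each subunit. Points of most genes lie close together, while those of Rpl5 (5.0 and 11.0 TPM) and Rps13 (90.9 and 175 TPM) lie further apart. Genes range over 3 orders of magnitude, from Rplp1 at 4421 and 5281 TPM down to the paralog Rpl22l1 at 4.12 and 3.29 TPM. Rpl5 is the lowest core member.

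The lowest core member was Rpl5, which with Rpl11 and 5S ribosomal RNA forms the particle that can bind Mdm2. It had 5.0 TPM in replicate 1 against 11.0 TPM in replicate 2, while Rpl11 had 143 TPM in replicate 1 and 140 in replicate 2. Rpl27 had 17.0 TPM in replicate 1 against 22.4 TPM in replicate 2. Rpl22, which binds RNA and has the paralog Rpl22l1, had 19.3 TPM in replicate 1 and 19.1 in replicate 2. Of these 3, only Rpl22 had nearly the same level in both libraries.

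Rpl21 had 24.4 TPM in replicate 1 against 24.2 TPM in replicate 2, and Rpl39, a protein of the exit tunnel, had 31.0 TPM in replicate 1 and 30.2 in replicate 2. Rps20 had 35.0 TPM in replicate 1 against 47.9 TPM in replicate 2, Rps25 had 48.3 TPM in replicate 1 and 40.5 in replicate 2, and Rpl35 had 50.8 TPM in replicate 1 against 49.0 TPM in replicate 2. Rpl31, beside the tunnel exit, had 55.2 TPM in replicate 1 and 59.3 in replicate 2. The 10 lowest, Rps27a among them, held 1.25% of the core TPM and the 10 highest 47.1%.

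Differences among genes were far larger than differences between libraries. The SD of log2 mean TPM over the 78 core genes was 1.60, and the highest was 606 times the lowest. Over the 81 members with enough reads, the log2 ratio of scaled reads between libraries had an SD of 0.27 and a median size of 0.16. Across the core genes, which are not independent replicates and share the libraries, TPM in replicate 1 and replicate 2 had a Spearman correlation of 0.984. In all, 34 of 78 core members lay within 2-fold of the core median, 22 above that band and 22 below it.

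The paralogs were mostly low. Rps27l, a paralog of Rps27, had 83.5 TPM in replicate 1 against 72.8 TPM in replicate 2. Rpl7l1 had 19.7 TPM in replicate 1 and 17.8 in replicate 2, and Rpl22l1 had 4.12 TPM in replicate 1 against 3.29 TPM in replicate 2. Rpl7l1 stood below Rpl7 (140 TPM on average) and Rpl22l1 below Rpl22 (19.2 TPM on average), whereas the range of Rps27l overlapped with that of Rps27.

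The other 3 paralogs were listed below 0.1 TPM in both libraries. Rpl3l, known from skeletal and heart muscle, had 2 reads in each library (0.03 TPM). Rpl39l, known from testis, had 2 reads in replicate 1 and 0 reads in replicate 2, which allows up to 0.122 TPM there. Rpl10l, a testis-expressed copy of the X-linked Rpl10, had 0 reads in both libraries, which allows up to 0.0737 TPM in replicate 1 and 0.0723 in replicate 2 when 3 reads are taken as the limit. Skeletal muscle markers summed to 0.50 TPM in replicate 1 against 0.67 TPM in replicate 2, and testis markers to 0.58 TPM in replicate 1 and 0.14 in replicate 2, with Tnp1 below 0.1 TPM in both.

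Read sharing with copies bears on many of these levels. Genes elsewhere in GENCODE M21 with a transcript that matched a member's coding sequence in the same sense, at 90% identity or more over at least 80% of its length, numbered 985. Of these, 963 are annotated as processed pseudogenes and 17 as protein-coding, and 79 of 84 members had at least 1. The tables list 696 of the copies: 461 had no reads in either library, 66 had at least 1 TPM in both and 35 at least 10 TPM in both. Together the copies held 2683 TPM in replicate 1 against 2438 TPM in replicate 2, which is 8.44% ± 0.991 of the summed TPM of members and copies (SD, n = 2).

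In 18 families the copies held at least 10% of TPM in both libraries. In 5 of them they held more TPM than the gene itself: Rpl5, Rpl27, Rpl21, Rpl14 and Rpl12. Shares of reads could differ. Rpl12 had 3898 reads in replicate 1 and 4916 in replicate 2, against 2817 and 3339 on its copies. Rpl37 had 7889 and 7637 reads, against 222 and 388 on its copies. Rps27 went the other way, with 179 and 289 reads against 185 and 227. Over all families, copies held 7.83% of reads in replicate 1 and 6.92% in replicate 2. Gm15500, a processed pseudogene on chromosome 7 at 114705217 to 114706235 (minus strand) that matches the Rpl5 coding sequence at 100% identity, had 126 TPM in replicate 1 and 116 in replicate 2. Rpl5 itself, with introns, on chromosome 5 at 107900502 to 107909005, was the lowest core member. Summed, the Rpl5 family came to 131 TPM in replicate 1 against 127 TPM in replicate 2, closer to each other than the gene's own 5.0 and 11.0 TPM.

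Rpl27 showed the same division, with 210 TPM in replicate 1 and 249 in replicate 2 on the pseudogene Rpl27-ps3, which is identical in coding sequence. BC004004, annotated as protein-coding and 98.5% identical to Rpl21, had 77.9 TPM in replicate 1 against 79.6 TPM in replicate 2, above Rpl21 itself in both libraries. Rpl14-ps1 had 155 TPM in replicate 1 and 97.6 in replicate 2, against 62.9 and 68.4 TPM of Rpl14 in the same order. Gm10275 had 129 TPM in replicate 1 against 148 TPM in replicate 2, and Rpl12 had 112 TPM in replicate 1 and 136 in replicate 2. BC004004 stands apart: its 5176 reads in replicate 1 and 5288 in replicate 2 had a posterior SD, described below, of 0. The deposited estimate thus did not split its reads with Rpl21, which does not show that the placement was right. For the other reads of these families, the locus that made them cannot be told from the tables. The levels of these genes and of their other copies are therefore uncertain.

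Adding each member's copies lowered the SD of log2 levels to 1.40, and the highest family was then 255 times the lowest. These sums include copies annotated as protein-coding, among them BC004004. It held 77.9 of the 90.5 TPM on Rpl21 copies in replicate 1 and 79.6 of 95.5 in replicate 2. The place of Rpl21 among the 5 families with more TPM on copies than on the gene rests on it. Wdr89 was counted for Rplp2, at 1.60 and 1.81 TPM, and Gins1 for Rpl41, at 2.26 and 1.68 TPM. Of the 10 lowest core genes, 5 were among the 18 families with a 10% share of TPM on copies. Of the 10 highest, Rpl41 was the only such gene, chiefly through Gm10076, a lincRNA that holds an identical coding sequence and had 176 TPM in replicate 1 against 110 TPM in replicate 2. After this sum the 5 lowest were Rpl22, Rpl39, Rps20, Rps25 and Rps27a, and 62 of 78 core families had at least 100 TPM in both libraries.

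**Figure D2:**
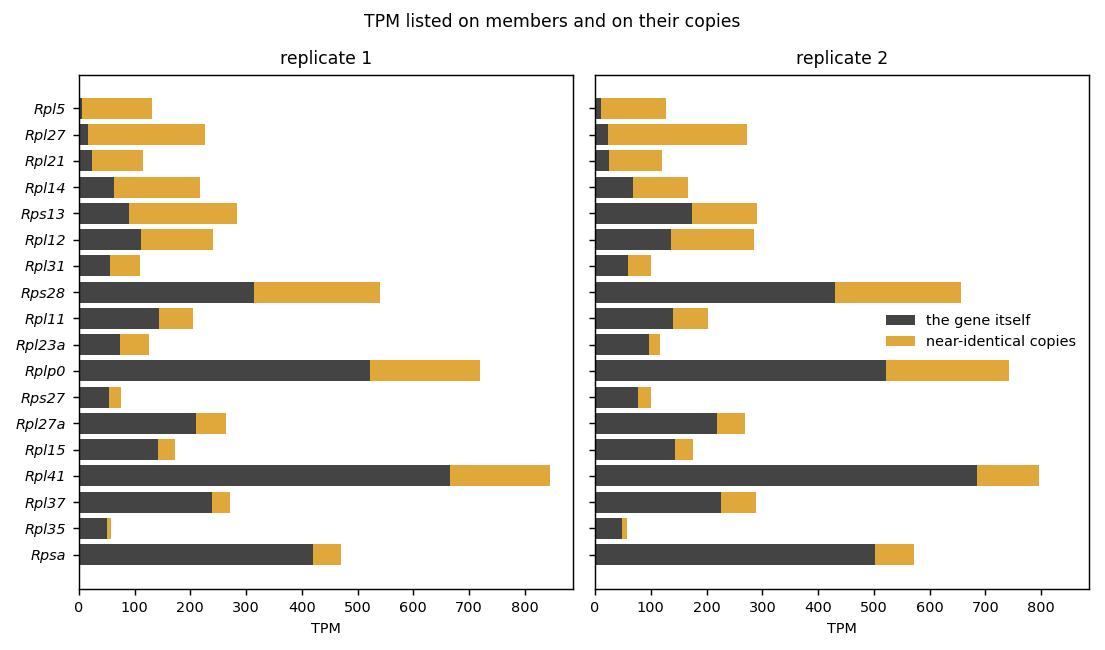
TPM listed on the gene itself (dark bars) and on its near-identical copies elsewhere in the genome (light bars), in replicate 1 (left) and replicate 2 (right), for the 18 families with at least 10% on copies in both libraries. For Rpl5, Rpl27, Rpl21, Rpl14 and Rpl12 the light part exceeds the dark part in both libraries. Most of the light part of Rpl21 is BC004004, annotated as protein-coding.

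The authors' posterior standard deviation of the read count, which grows where reads fit several places, was above 1% of the reads in either library for 12 of 78 core genes (15.4%), against 5.37% of 11072 other genes at a mean TPM of at least 1. It was 0 in both libraries for 11 core genes (14.1%), among them Rps21, Rpl8 and Rps20, against 86.2% of the other genes. Rpl5 at 8.90% in replicate 1 and 9.31% in replicate 2, and Rpl27 at 5.11% in replicate 1 and 6.69% in replicate 2, were the members above 5%. BC004004 had a posterior SD of 0 in both libraries. A small value says how firmly the model placed reads, not that the placement was right.

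Length is another part of each level. TPM divides by an effective length that is shorter than the transcript by about a fragment, which raises short genes most. Rps27, a zinc-finger protein of the small subunit, is listed with a transcript of 255 bases and an effective length of 66.8 bases in replicate 1 and 77.0 bases in replicate 2. From 179 reads in replicate 1 and 289 in replicate 2 it came to 54.9 TPM in replicate 1 and 76.4 in replicate 2. Divided by annotated length it would average 23.1 TPM, so its TPM was 2.84 times higher. Rps27l took 1279 reads in replicate 1 and 1155 in replicate 2, and by annotated length its 61.3 TPM lay well above Rps27, while the TPM ranges of these paralogs overlapped.

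For the other detected members the length used mattered less, with a ratio of 1.60 for Rpl38, 1.52 for Rps29 and 0.857 for Rps20. Ranks among the core genes moved accordingly: Rps21 was the 6th by TPM and the 14th by annotated length, and Rpl36 the 5th and the 10th. The leading 4 kept their places. Rps20 has the largest length listed per gene among the core members, with an effective length of 2729 bases in replicate 1 and 3412 bases in replicate 2, because most of its TPM is assigned to the 3706-base isoform Rps20-203.

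**Figure D3:**
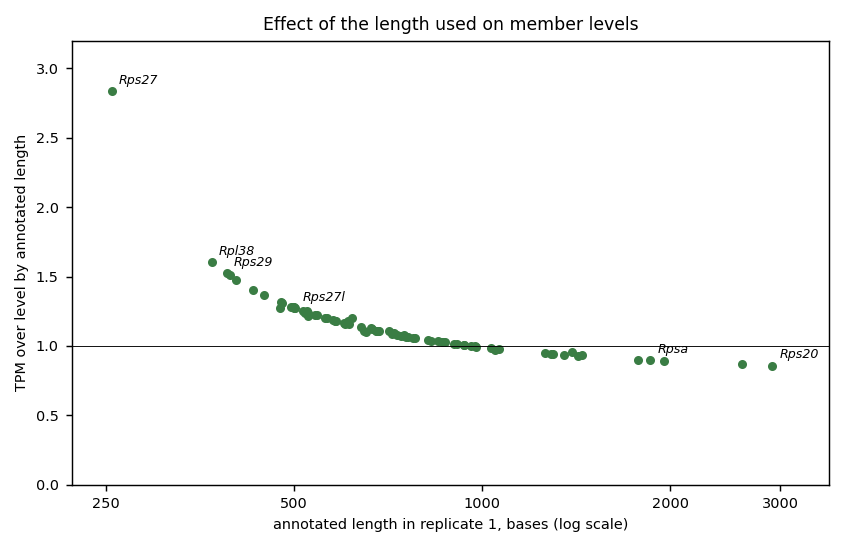
Ratio of TPM to the level computed from annotated length, against the annotated length in replicate 1 in bases (log axis), for the 81 members at 1 TPM or more in both libraries. The ratio is 2.84 for Rps27, the shortest, and falls below 1 for long transcripts such as Rps20 at 0.857.

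Isoforms annotated as coding held 90.9% ± 0.938 of the members' TPM (SD, n = 2), with 91.6% in replicate 1 and 90.2% in replicate 2. The members have 374 isoforms in the tables, 181 of them coding and 116 with a retained intron. Retained introns held 5.36% of the members' TPM in replicate 1 and 6.64% in replicate 2, processed transcripts 1.01% and 1.20%, and isoforms marked for nonsense-mediated decay 0.358% and 0.482% in the same order. For 60 of 84 members the noncoding isoforms were listed under 5% in both libraries, Rpl13a among them, which could not be judged, and for 8 they reached 20% in both.

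Rps6, the small subunit protein that S6 kinases phosphorylate, stood highest: noncoding isoforms held 85.5% of its TPM in replicate 1 and 86.2% in replicate 2, nearly all on the 639-base processed transcript Rps6-202. Rpl12, a protein at the base of the P stalk, followed with 73.7% in replicate 1 and 74.5% in replicate 2. Its main isoform was Rpl12-201, marked for nonsense-mediated decay, at 55.2% in replicate 1 and 49.99% in replicate 2. In these 2 genes the share was nearly the same in both libraries.

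Rps16 had 48.8% in replicate 1 and 57.3% in replicate 2 on the retained-intron isoform Rps16-202. Rpl5, at few reads, had 55.7% in replicate 1 and 74.7% in replicate 2. For Rps2, the second most abundant member, noncoding isoforms held 33.6% of TPM in replicate 1 and 47.7% in replicate 2, that is 680 TPM in replicate 1 against 901 TPM in replicate 2. The share of Rpl5 varied more between the libraries than that of Rps16.

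Among genes singled out after their values were seen, Rps9 had 29.8% on noncoding isoforms in replicate 1 and 9.74% in replicate 2. Rpl13a could not be judged because 90.5% of its TPM in replicate 1 and 92.7% in replicate 2 stood on isoforms that GENCODE M21 no longer lists. Isoform levels are estimates that divide reads over shared exons. The noncoding shares leave out the TPM listed on copies, which exceeded the gene's own in Rpl12 and Rpl5. Noncoding isoforms of Rpl12 had 82.6 TPM in replicate 1 and 101.2 in replicate 2, where its family summed to 241.5 and 284.8 TPM. Those of Rpl5 had 2.78 and 8.22 TPM in the same order, where its family summed to 131 and 127 TPM. The part of read placement in these shares was not tested.

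**Figure D4:**
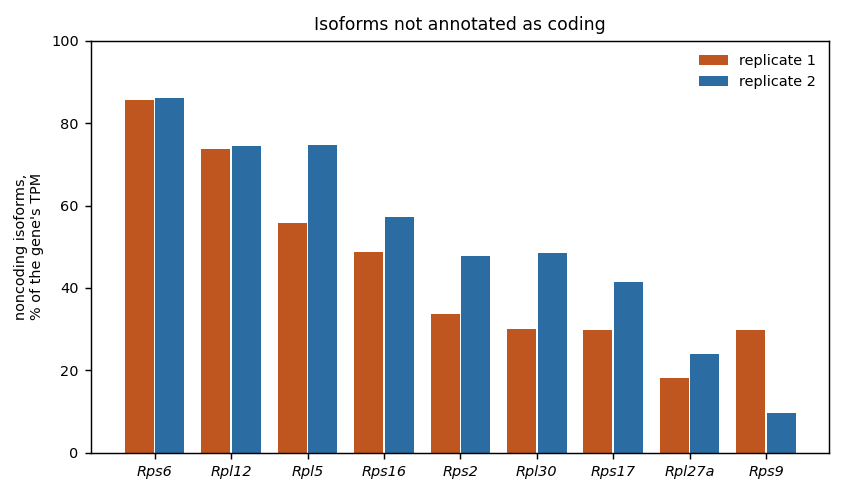
Share of each gene's TPM on isoforms not annotated as coding (retained intron, processed transcript or nonsense-mediated decay), in percent, in replicate 1 (left bar) and replicate 2 (right bar), for 9 of the 10 members with the highest mean share. Rps6 is highest at 85.5% and 86.2%, and of these genes Rps9 differs most between the libraries at 29.8% and 9.74%.

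Ribosomal protein genes also house small nucleolar RNAs, guides of ribosomal RNA modification, in their introns. By annotation 30 members contain 58 of them on the same strand, with 5 in Rpl4. In these libraries, made from RNA longer than 200 nucleotides, they summed to 0 reads in replicate 1 and 7 reads in replicate 2. Their median length was 91.5 bases and 57 of 58 had an effective length of 0, so no level could be given.

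To compare the libraries, reads were scaled by TMM and genes with a sum of 20 reads or more were put to an exact binomial test (two-sided, conditional on that sum), adjusted by Benjamini-Hochberg over 14533 genes at 0.05. The test sets the difference against counting error alone. With 57.6% of all genes tested past it, 29.0% higher in replicate 1 and 28.6% higher in replicate 2, a call was common in this comparison. Among the members, 66 of 81 tested passed (81.5%), 40 of them higher in replicate 1 and 26 higher in replicate 2. Deeply read genes pass more often, so the nearer background is the 5481 genes at a mean TPM of at least 10, of which 75.9% passed, 47.5% higher in replicate 1 and 28.5% higher in replicate 2. At that level 65 of 79 members passed (82.3%), 40 higher in replicate 1 and 25 higher in replicate 2. Scaled by spike-in reads, the 63 members called were 15 higher in replicate 1 and 48 higher in replicate 2, and by total reads the 60 called were 19 and 41 in the same order, so the split followed the scaling. Of the members called, 23.8% were then higher in replicate 1 by spike-in reads and 31.7% by total reads, against 26.3% and 30.7% of all genes called.

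Differences were small. The median log2 ratio of the members, replicate 1 over replicate 2, was 0.06, against 0.07 for all genes at a mean TPM of at least 10 and -0.003 for all genes tested. It was -0.09 with spike-in scaling, where all genes tested had a median of -0.15. Only 4 members (4.94%) passed the test with at least a 1.5-fold difference: Rpl30 was higher in replicate 1, and Rps13, Rps20 and Rpl5 were higher in replicate 2. Of all genes at a mean TPM of at least 10, 8.41% did so. No member differed 2-fold in scaled reads. Scaled reads are not corrected for effective length. In replicates 1 and 2 it was 2729 and 3412 bases for Rps20, and 422.5 and 367.6 bases for Rpl30. In TPM, Rps20 had 35.0 and 47.9, Rpl30 93.6 and 74.7, and Rpl5 5.0 and 11.0 in the same order. Rpl5 thus differed more than 2-fold in TPM. The part of length in these ratios was not tested. The interquartile range of the members' log2 ratios ran from -0.13 to 0.19, against -0.12 to 0.24 for all genes at a mean TPM of at least 10. The median ratio was 0.06 in core 60S genes and 0.01 in core 40S genes.

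Rps13, of the small subunit, had the largest difference, at 90.9 TPM in replicate 1 and 175 in replicate 2, a log2 ratio of -0.85 (adjusted p = 1.11e-91, exact binomial test of the libraries). Its pseudogene Rps13-ps1 (chromosome 8, 87047689 to 87048226, plus strand, 99.6% identical) went the other way, with 192 TPM in replicate 1 against 115 TPM in replicate 2. With the copies' reads added the log2 ratio of the Rps13 family was 0.01. Rps27, also in replicate 2's favour at a log2 ratio of -0.54, had a family ratio of -0.36.

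Rpl30 had 93.6 TPM in replicate 1 and 74.7 in replicate 2, a log2 ratio of scaled reads of 0.66 (adjusted p = 1.67e-37, exact binomial test). Its copies had 2.30 TPM in replicate 1 against 53.6 TPM in replicate 2, and with them the ratio was 0.26. Rpl5 had a log2 ratio of -0.60 alone and 0.18 with its copies, so its direction turned when their reads were added.

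The other 6 differences of named genes among the 10 largest moved by less than 0.1 on the log2 scale with copies. Rps20, with no reads on copies, had a log2 ratio of -0.64 (4651 reads in replicate 1 and 8029 reads in replicate 2). Rps15 had -0.51, and -0.51 with its copies. Rpl18, a large subunit protein, had 381 TPM in replicate 1 and 282 in replicate 2, a log2 ratio of 0.54, or 0.53 with its copies. Rpl10a, of the mobile L1 stalk, had a ratio of 0.38, Rpl3, near the peptidyl transferase centre, 0.38, and Rps25 0.36, and with copies these were 0.38, 0.29 and 0.36. Over all families, 80 of 81 with enough reads lay within 1.5-fold between the libraries, against 77 of 81 members counted alone.

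**Figure D5:**
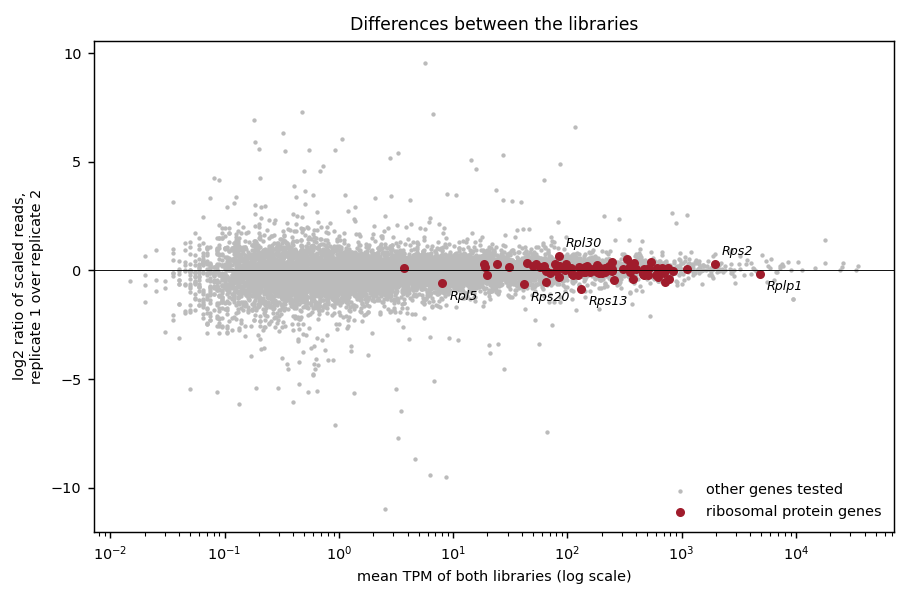
Log2 ratio of scaled reads, replicate 1 over replicate 2, against mean TPM of both libraries (log axis), for ribosomal protein genes (dark points) and the other genes tested (grey points). The members lie between -0.85 (Rps13) and 0.66 (Rpl30), inside the cloud of other genes.

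Genes around the ribosome gave the following counts, read against the same background. Of 16 other genes with TOP mRNAs, 9 were higher in replicate 1 and 1 in replicate 2, with a median log2 ratio of 0.10, whereas spike-in scaling gave 1 and 8 in the same order and a median of -0.05. Eef1a1, the elongation factor that delivers tRNA, had 2071 TPM in replicate 1 against 2336 TPM in replicate 2, and Tpt1, the translationally controlled tumour protein, 1187 TPM in replicate 1 and 1191 in replicate 2. Eef1b2, a subunit of the exchange factor of Eef1a1, had a log2 ratio of 0.30 and the nucleolar Npm1 0.29. Of the 20 genes that control their translation or transcription, 6 were higher in each library, or 5 in replicate 1 and 12 in replicate 2 with spike-in scaling. Eif4ebp2, an inhibitor of the cap-binding factor, had 154 TPM in replicate 1 against 130 TPM in replicate 2, the mTOR partner Akt1s1 89.0 TPM in replicate 1 and 83.8 in replicate 2, and the mTOR activator Rheb a log2 ratio of 0.43.

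Of 28 ribosome assembly genes, 5 were higher in replicate 1 and 15 in replicate 2, with a median log2 ratio of -0.17. Of all genes tested, 29.0% were higher in replicate 1 and 28.6% in replicate 2. Spike-in scaling gave 1 and 20 assembly genes in the same order and a median of -0.32. Under that scaling 26.3% of all genes called were higher in replicate 1. Eif6, which keeps free 60S subunits apart from 40S, had 67.2 TPM in replicate 1 against 72.3 TPM in replicate 2, and Nop10, of the pseudouridine-guiding particles, 51.7 TPM in replicate 1 and 58.4 in replicate 2. Nop56, a protein of the methylation-guiding particles, had a log2 ratio of -0.60 and their methyltransferase Fbl 0.39. Of the 5 ribosome rescue genes tested, 1 was higher in replicate 1 and 2 in replicate 2, or 0 and 2 with spike-in scaling. Zfp598, a sensor of collided ribosomes, had 51.8 TPM in replicate 1 against 78.9 TPM in replicate 2. Pelo, which splits stalled ribosomes, had 17.1 TPM in replicate 1 and 24.6 in replicate 2. Rpl36al, an Rpl36a paralog outside the symbol rule, had 125 TPM in replicate 1 against 111 TPM in replicate 2.

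Mitochondrial ribosomal proteins, which serve the organelle's own ribosome, were lower in level. All 77 genes were at 1 TPM or more in both libraries, with a median of 29.5 TPM, against 187 TPM for the cytosolic members. They were led by Mrpl52, at 737 TPM in replicate 1 and 1101 in replicate 2, and Mrps24, at 243 TPM in replicate 1 against 231 TPM in replicate 2. Of the 77, 41 were higher in replicate 1 and 10 in replicate 2, with a median log2 ratio of 0.15, whereas spike-in scaling gave 23 and 21 in the same order and a median of -0.002. At a mean TPM of at least 10, the largest log2 ratios were those of Mrps36 (0.95) and Mrpl13 (0.57). No test of the difference between these lists was made.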

How the data were processed

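Gene and transcript tables of the 2 liver libraries were used. Per the file headers and notes, the authors used mm10 and GENCODE M4; the program was not given in the sources used here. Deposited estimated counts split reads that match several genes, and were rounded before tests. Deposited TPM values divide by effective length, spike-ins included. The percent per transcript deposited by the authors is its share of the gene's TPM and was recomputed from TPM. The posterior SD, a deposited score in reads, was taken as a share of reads. Symbols, types and coordinates came from GENCODE M21 (GRCm38, the assembly of mm10), which named 42462 of 43346 genes. Members, lists and tests were chosen with earlier results of these data known. Named genes are the 10 highest and 10 lowest core members, paralogs, stalk and fusion genes, the 5 largest ratios each way at mean TPM 10, members with a posterior SD above 5%, the 5 largest noncoding shares, and per pathway list the 2 highest and the 2 largest ratios.

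Scaling was TMM (edgeR 4.0.16, R 4.3.3), checked against DESeq2 1.42.0 size factors, with 0.5 reads added for log2 ratios, and the exact test (scipy 1.17.1) was tested on simulated data. With a single group no quasi-likelihood test between groups was possible. Copies were found with blastn 2.17.0, leaving out genes that overlap the member on its strand. Intervals and limits cover counting error only. Junction and contig files on mm9 were not used. A few genes named by these rules are not reported here.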

Additional observations from a re-analysis of the deposited data

How the results depend on the processing

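The members' share of TPM, 2.79%, was 3.37% over nuclear protein-coding genes alone, 2.39% by annotated length and 3.04% with copies added. The SD of log2 core levels, 1.60, was 1.56 by annotated length, 1.46 over members whose posterior SD is no more than 1%, 1.40 with copies added and 1.60 to 1.62 with either library left out. The count of 66 members that differed stayed within 1.5 times under every scaling, filter, error model and count tried except the 1.5-fold minimum, which left 4. Its split did not: 19 were higher in replicate 1 and 41 in replicate 2 by total reads, and 15 and 48 by spike-in reads, where the median log2 ratio of all genes tested was -0.13 and -0.15. The members' median log2 ratio of 0.06 was -0.0582 by total reads, -0.0874 by spike-in reads and -0.0367 as a ratio of TPM. The log2 ratio of Rps13, -0.85, was 0.0113 with copies added. No other gene among the 10 with the largest ratios at a mean TPM of at least 10 changed direction or lost its call. Rpl5, below that level, also changed direction, to 0.179 with copies added. The tract count of 14 was 30 within 5 bases and 54 within 25 bases of the start. The members detected numbered 80 at 5 TPM, against 81. Left-out libraries gave a coding isoform share of 90.2% to 91.6% and a share on copies of 7.74% to 9.14%. Copy sums and stricter copy identities, at which the share on copies was 8.43% (95% identity) and 7.80% (98%), were added after seeing the data. Except where an alternative's construction sets the change, the cause was not tested. No paired analysis was possible because the design has 1 group. Protein features of the members were planned and not run, since no protein sequences were used here. Calls at this depth follow read number: the test sees counting error only.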
